A study of Mus musculus with 2 samples.

Results

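Neutrophils of injured skeletal muscle were chosen by their transcripts of the CC chemokines *Ccl3* and *Ccl4*, of the interleukin-23 subunit *Il23a* and of the fatty acid receptor *Gpr84*. They are called *Ccl3*/*Il23a* neutrophils here after 2 genes of the rule, although many members held no *Il23a*. A cell was counted as a neutrophil when *S100a8* and *S100a9*, which encode the calcium-binding calprotectin of the neutrophil cytosol, made up at least 2% of its UMIs (unique molecular identifiers, each standing for 1 captured RNA molecule). It was a member when its summed UMIs of *Ccl3*, *Ccl4*, *Il23a* and *Gpr84* exceeded its summed UMIs of *Retnlg*, *Cxcr2*, *Wfdc21* and *Pglyrp1*, which are typical of neutrophils in blood. The rule took 1532 cells on day 1 and 130 cells on day 3, which were 1662 of the 11362 cells of both days. These genes chose the cells, so their levels are a description and not a finding.

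The cells came from the quadriceps of male wild-type *C57BL/6J* mice of 14 weeks, collected 1 day or 3 days after intramuscular injection of BaCl2, which kills myofibers but leaves the tissue able to regenerate. Each day had 1 library, pooled from 5 mice, and for that reason no difference was tested. The suspensions held mononuclear cells of the muscle after a sort on light scatter, and they were cryopreserved and thawed before 10x Genomics 3-prime single-cell RNA-seq. Uninjured muscle was not analysed here, so the *Ccl3*/*Il23a* neutrophils were compared with other cells of the same libraries and between the days. The level of a gene is given in CPM, its UMIs per 1000000 UMIs after summing the cells of a group. Intervals of levels (exact Poisson), of shares (Clopper-Pearson) and of log2 ratios (exact binomial) are at 95%. They hold the error of counting alone and say nothing of how mice or libraries vary.

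Neutrophils are short-lived granulocytes that leave the blood within hours of tissue damage and release preformed granule proteins and oxidants. They are known to change their transcripts on the way, losing genes of the circulating state such as the chemokine receptor *Cxcr2* and gaining cytokine and chemokine genes that are controlled by NF-kB and AP-1. In injured muscle they arrive before most monocytes and are cleared by macrophages as repair proceeds.

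The libraries held 74852240 UMIs on day 1 and 102565783 on day 3. After filters on UMIs, genes and mitochondrial share, 6735 and 4627 cells remained, and no day 1 cell shared its barcode with a day 3 cell. The list of possible barcodes held 737280 entries on day 1 and 6794880 on day 3, so library chemistry may differ between the days and cannot be told apart from the day. The cell call also took barcodes of fewer UMIs on day 1: the lowest barcode called as a cell had 1302 UMIs on day 3, and 65 of the 130 members of that day lay within 300 UMIs of it. With this lowest count asked of both days, 1494 and 130 members remained, 22.5% and 2.81% of the cells. With all barcodes of at least 500 UMIs taken as cells, the members were 23.1% and 4.37%. Barcodes of fewer UMIs were not counted.

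On day 1, the *Ccl3*/*Il23a* neutrophils were 22.7% of all cells (95% CI 21.8 to 23.8) and 84.7% of the 1808 neutrophils (83.0 to 86.4). On day 3, they were 2.81% of all cells (2.35 to 3.33) and 83.3% of the 156 neutrophils (76.5 to 88.8). Neutrophils of this kind were thus a large part of the cells on day 1 and a small part on day 3. With all cells counted, the intervals of their share of all neutrophils overlapped between the days. Of the other neutrophils, 238 on day 1 and 22 on day 3 had the larger sum in *Retnlg*, *Cxcr2*, *Wfdc21* and *Pglyrp1* and are called *Retnlg*/*Cxcr2* neutrophils, and 38 and 4 had equal sums. The 22 cells of day 3 had a median of 5005 UMIs, and 68.2% of them carried at least 2 UMIs of macrophage markers, so they were not used as a comparison. They remain among the 156 neutrophils and lower the share of 83.3%. Without the cells of over 4000 UMIs, 128 members and 11 *Retnlg*/*Cxcr2* neutrophils remained on day 3, and 1353 and 223 on day 1. The day 3 share was higher in that setting, and also without the cells with macrophage markers. Whether the share was the same on both days was therefore not resolved.

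**Figure D1:**
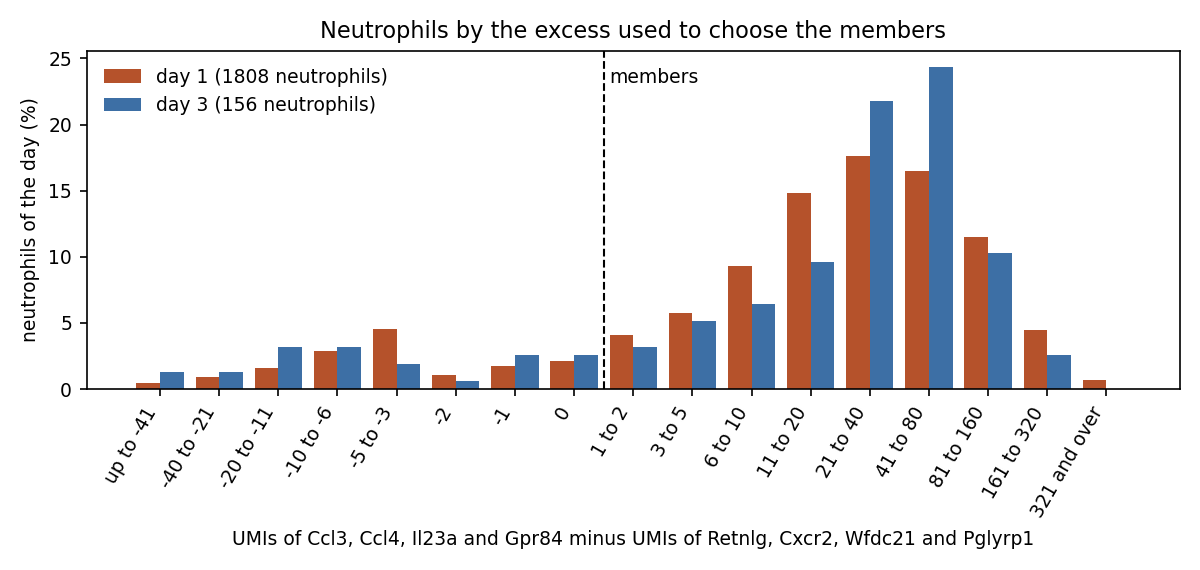
Share of the neutrophils of each day (y axis, %) by the excess of *Ccl3*, *Ccl4*, *Il23a* and *Gpr84* UMIs over *Retnlg*, *Cxcr2*, *Wfdc21* and *Pglyrp1* UMIs (x axis, UMIs per cell); the members lie at 1 or more. Most of the 1808 neutrophils of day 1 and of the 156 of day 3 lie well above 0, with medians of the members at 27 and 36 UMIs.

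The excess had a median of 27 UMIs among the members of day 1, with a range of 1 to 623, and a median of 36 on day 3, with a range of 1 to 301. Just inside the limit, with an excess of 1 or 2 UMIs, lay 74 members of day 1, or 4.83%, and 5 of day 3, or 3.85%. Just outside it, with a deficit of 1 or 2 UMIs or a tie, lay 51 and 38 cells of day 1 and 5 and 4 cells of day 3. Near the limit on *S100a8* and *S100a9*, 116 cells of day 1 lay between 2% and 2.5% and 103 between 1.5% and 2%, and 18 and 16 such cells were found on day 3. The members had a median of 2236 UMIs and 792 genes on day 1 and of 1608.5 UMIs and 730 genes on day 3, far below the 11416.5 and 13690 UMIs of the macrophages (at least 5 UMIs of macrophage markers) of the 2 libraries.

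The chemokines decided the choice. *Ccl3* and *Ccl4*, ligands that draw monocytes and other leukocytes, made up 96.7% of the first sum on day 1 and 98.8% on day 3. Their UMIs alone exceeded the second sum in 1501 of the members of day 1, or 98.0%, and in 129 of those of day 3, or 99.2%. *Il23a* and *Gpr84* alone would have kept 270 members of day 1, or 17.6%, and 22 of day 3, or 16.9%. Neither gene had a UMI in 734 members of day 1 (47.9%) and in 90 members of day 3 (69.2%), and all 4 genes were seen together in 169 cells (11.03%) and in 2 cells (1.54%). The second sum was 0 in 10.1% of the members of day 1 and in 37.7% of those of day 3. *Retnlg* was at 350 CPM in the members of day 1 and at 96.7 CPM in those of day 3, and *Cxcr2* was at 435 and 223 CPM.

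*Ccl3* was at 9702 CPM (9611 to 9794) in the members of day 1 and at 16788 CPM (16272 to 17317) in those of day 3. *Ccl4* was at 9032 CPM (8944 to 9121) and at 10675 CPM (10264 to 11099). A single member held up to 272 UMIs of *Ccl3* and up to 355 UMIs of *Ccl4* on day 1, against medians of 18 and 10, so the amount per cell spread widely. Macrophages of the same libraries were at 1005 and 570 CPM of *Ccl3*, and the members, though small, held 42.2% of all *Ccl3* UMIs and 34.01% of all *Ccl4* UMIs of the day 1 cells. On day 3 they held 10.7% and 4.35%.

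*Il23a*, whose product joins the p40 chain to form interleukin-23, was at 396 CPM (378 to 415) in the members of day 1 and at 75.7 CPM (44.8 to 120) in those of day 3, where 18 UMIs were counted. The log2 ratio of day 3 over day 1 was -2.35, a description, since the gene is part of the rule. *Il12b*, which encodes the p40 chain, had no UMI in the members of either day, a count that allows up to 0.677 CPM on day 1 and 12.6 CPM on day 3 (3 UMIs of the total). *Gpr84* was at 246 CPM (232 to 261) and 261 CPM (200 to 334), so that its intervals overlapped between the days.

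*Il23a* was seen in 33.7% of the members of day 1 (31.3 to 36.1, median 2236 UMIs) and in 3.59% of the stromal cells, which should lack it and had a median of 27845.5 UMIs. With each cell thinned to 1000 UMIs, no cell being left out, the shares were 21.5% and 0.156%. On day 3, *Il23a* was seen in 9.23% of the members, or 7.69% after thinning, and in 1.20% of the stromal cells, or 0 of 1001 after thinning, which allows up to 0.300%. *Ccl3* was seen in 98.7% of the members of day 1 against 28.9% of the stromal cells, and in 96.4% against 5.47% after thinning. Some *Ccl3* was thus found in cells that should lack it. Both genes chose the members, so their shares in the members are set in part by the rule.

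The label was checked against the markers of neutrophils and of other cells. *S100a8* and *S100a9*, used by the rule, were at 35454 and 37273 CPM in the members of day 1 and at 31857 and 28628 CPM in those of day 3. Neutrophil genes outside the rule were present on both days: *Csf3r*, the receptor of G-CSF, was at 1171 and 832 CPM, the decoy receptor *Il1r2* at 2696 and 2182 CPM, and the histidine decarboxylase *Hdc* at 3366 and 2342 CPM. The macrophages of day 1 were at 36.0, 64.3 and 59.0 CPM of these genes. *Ly6g*, the surface antigen by which mouse neutrophils are usually gated, was rarely seen. It had UMIs in 1.89% of the members of day 1 and in 1 of the 130 members of day 3. In the *Retnlg*/*Cxcr2* neutrophils of day 1 the share was higher, 4.62%. *Siglecf*, best known from eosinophils, was at 61.6 and 134 CPM, while the eosinophil genes *Epx*, *Prg2* and *Ear1* had no UMI on either day. The other eosinophil genes of the list, *Ccr3* and *Ear2*, had 24 and 7 UMIs on day 1 (5.42 and 1.58 CPM) and 1 UMI each on day 3. That these cells were activated in the tissue was not measured, since no blood or bone marrow was analysed here.

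Other cells were present among the members in small numbers. At least 2 UMIs of 7 macrophage markers were found in 149 members of day 1, or 9.73%, and in 9 of day 3, or 6.92%. More than 4000 UMIs were found in 179 members of day 1, which held 32.5% of the members' UMIs, and in 2 members of day 3, which held 7.76%. Among the *Retnlg*/*Cxcr2* neutrophils of day 1, 15 such cells held 28.5% of the UMIs. The ambient share estimated from collagen and decorin transcripts was 4.32% in the members of day 1, 5.29% in those of day 3 and 22.1% in the *Retnlg*/*Cxcr2* neutrophils of day 1, where *Dcn* stood at 203 CPM and 128 of its 134 UMIs lay in 1 cell. Without the cells of over 4000 UMIs the shares were 2.16%, 5.74% and 2.21%. The results below are therefore given also without the cells of over 4000 UMIs, called deep cells, which leaves 1353 members and 223 *Retnlg*/*Cxcr2* neutrophils on day 1 and 128 members on day 3.

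The transcripts that were most abundant in the members, next to *S100a8* and *S100a9*, were those of *Cxcl2*, a ligand of CXCR2, at 55113 CPM, of the ferritin heavy chain gene *Fth1* at 33507 CPM, of *Malat1* at 21672 CPM and of the pyrogenic cytokine gene *Il1b* at 17024 CPM. *Nfkbia*, which encodes the inhibitor of NF-kB that NF-kB itself induces, was at 12922 CPM. The cystine transporter gene *Slc7a11* was at 5214 CPM and *G0s2*, an inhibitor of the lipase ATGL, at 5405 CPM. Most UMIs of the day 1 cells lay in the members for *G0s2* (67.9%), *Siglecf* (67.2%), *Acod1* (65.9%), *Hcar2* (65.4%), *Il23a* (58.4%) and the long non-coding RNA *1110002J07Rik* (58.3%), although the members were 22.7% of the cells and had fewer UMIs than most. *Il23a* is a gene of the rule, so its share is set in part by the choice of the members. The members were also 84.7% of the day 1 neutrophils, and some of the other genes were as high in the remaining neutrophils. In the *Retnlg*/*Cxcr2* neutrophils of day 1, *G0s2* was at 5404 CPM and *Siglecf* at 60.7 CPM, beside 61.6 CPM of *Siglecf* in the members. *Acod1* was at 1768 CPM there and at 2870 CPM in the members. *Acod1* makes itaconate, and *Hcar2* is the receptor of nicotinic acid and beta-hydroxybutyrate. The highest shares, 83.1% for *Csta3* and 82.8% for *Stfa1*, belong to the stefin A family, whose near-identical copies can share reads and are uncertain.

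**Figure D2:**
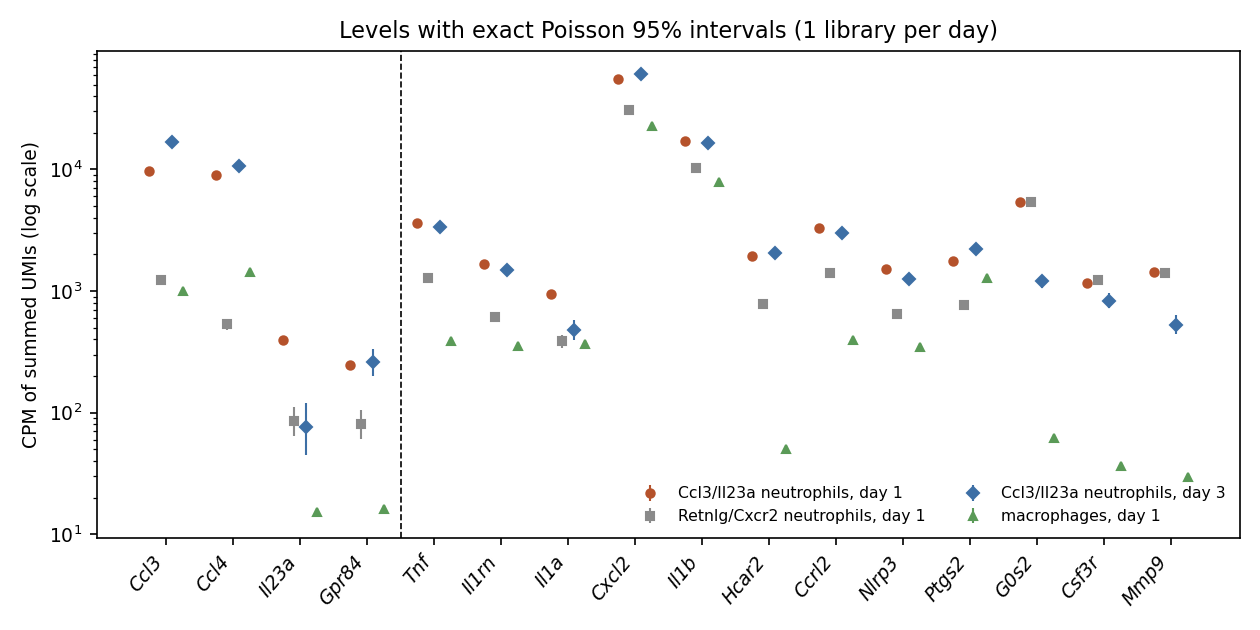
Levels of 16 genes (y axis, CPM of summed UMIs, log scale, with exact Poisson 95% intervals) in the *Ccl3*/*Il23a* neutrophils of both days, the *Retnlg*/*Cxcr2* neutrophils of day 1 and the macrophages of day 1. The 4 genes left of the dashed line chose the members; *Tnf* was at 3652 and 3347 CPM in the members of the 2 days and at 1290 CPM in the *Retnlg*/*Cxcr2* neutrophils.

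The promoters of the chemokine genes are shown because *Cxcl2* and its neighbours respond to NF-kB, and because *Cxcl1*, *Cxcl2* and *Cxcl3* went different ways in the members. Bases 150 to 31 before the first base of the RefSeq transcript are given, 5′ to 3′ on the strand of the gene, in build GRCm38.p6. Capitals mark GGGANTTTCC, a form of the NF-kB site, which was searched for, with no other motif, on both strands of the 250 bases before each transcript. The windows lie at chr5:90891095-90891214 (+) for *Cxcl1*, chr5:90903749-90903868 (+) for *Cxcl2*, chr5:90785951-90786070 (+) for *Cxcl3*, chr11:83649409-83649528 (-) for *Ccl3* and chr17:35202038-35202157 (-) for *Tnf*.
Cxcl1: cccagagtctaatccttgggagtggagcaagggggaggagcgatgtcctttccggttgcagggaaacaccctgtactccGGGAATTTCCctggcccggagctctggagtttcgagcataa
Cxcl2: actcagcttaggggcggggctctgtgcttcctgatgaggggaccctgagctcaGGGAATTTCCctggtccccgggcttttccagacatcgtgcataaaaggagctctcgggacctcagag
Cxcl3: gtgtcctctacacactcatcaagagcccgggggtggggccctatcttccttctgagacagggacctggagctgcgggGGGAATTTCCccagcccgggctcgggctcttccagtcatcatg
Ccl3: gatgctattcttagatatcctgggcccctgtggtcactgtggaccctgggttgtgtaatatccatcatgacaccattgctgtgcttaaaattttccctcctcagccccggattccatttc
Tnf: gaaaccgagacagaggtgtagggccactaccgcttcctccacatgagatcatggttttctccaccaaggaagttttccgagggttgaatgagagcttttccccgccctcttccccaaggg

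The motif lay at bases -71 to -62 of *Cxcl1*, -97 to -88 of *Cxcl2* and -73 to -64 of *Cxcl3*, and none was found in the 250 bases before *Ccl3* or *Tnf*. It was present in 3 of the 6 CXC chemokine genes of the list with a promoter in the RefSeq table, in 0 of 4 CC chemokine genes, in 2 of 17 cytokine genes (*Csf1* and *Il6*), and in 112 of all 27025 genes, or 0.414%. It was also present in 1 of 8 blood neutrophil genes, *Pglyrp1* of the second sum of the rule. Of the NF-kB feedback and target genes, 2 of 20 had it (*Nfkb2* and *Nfkbia*). None of 16 AP-1 and immediate early genes and none of 17 interferon response genes had it. A match describes the letters of the window and is not a measured site, and no match says only that these letters are not there. The promoters of *Ccl4*, *Il23a* and *Wfdc21* were not analysed here.

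The comparison of the *Ccl3*/*Il23a* neutrophils with the 238 *Retnlg*/*Cxcr2* neutrophils of day 1 asks what else differs between neutrophils of 1 tissue and 1 library that were split by these 8 genes. The members had more *Tnf*, *Il1rn*, *Il1a* and *Cxcl1*, more of the receptor genes *Hcar2* and *Ccrl2*, and more *Nlrp3* and *Ptgs2*, each by more than 2-fold. Compared were 3811 genes with at least 100 UMIs over both groups, without the 8 genes of the split but with *S100a8* and *S100a9*. Of them, 75 were at least 2-fold higher in the members (1.97%) and 84 at least 2-fold lower (2.2%). The median log2 ratio was -0.10. With 1 library, these counts carry no replicate check. Without the cells of over 4000 UMIs, 48 of 2790 genes were higher and 36 lower, and only 33 of the 75 and 9 of the 84 were among them. The genes below are therefore given with both ratios.

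Among the cytokines, *Tnf*, the gene of the inflammatory cytokine TNF, was at 3652 CPM in the members and at 1290 CPM in the *Retnlg*/*Cxcr2* neutrophils, a log2 ratio of 1.50 (1.40 to 1.60), or 1.37 without the cells of over 4000 UMIs. *Il1rn*, which encodes the antagonist of the interleukin-1 receptor, was at 1660 and 614 CPM, with a log2 ratio of 1.43 (1.29 to 1.58) and 1.29 without these cells. *Il1a* was at 937 and 388 CPM, with 1.27 (1.09 to 1.46) and 1.15. An agonist and the antagonist of the same receptor were thus higher together. *Il1b*, the other agonist, was at 17024 and 10302 CPM, with a smaller log2 ratio of 0.72 (0.69 to 0.76) and 0.55. *Csf1*, the growth factor of macrophages, was at 975 and 511 CPM, with 0.93 and 0.81. Of the 14 cytokine and growth factor genes compared, 4 were at least 2-fold higher, *Tnf*, *Il1rn*, *Il1a* and the TNF family ligand *Tnfsf14* (1.08, and 0.71 without the deep cells), and 0 lower, with a median log2 ratio of 0.62 beside -0.10 over all genes. Of all genes, 1.97% were at least 2-fold higher and 2.2% lower.

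Among the chemokines outside the rule, *Cxcl1* was at 686 CPM in the members and at 221 CPM in the *Retnlg*/*Cxcr2* neutrophils, a log2 ratio of 1.63 (1.39 to 1.88), or 1.81 without the cells of over 4000 UMIs. Its UMIs lay in 22.2% and 13.9% of the cells. *Cxcl2* was at 55113 and 31094 CPM, with 0.83 (0.81 to 0.85) and 0.71, and it was found in nearly all cells of both groups. *Cxcl3* was at 3222 and 2312 CPM, with 0.48 and 0.16. Of 5 CXC chemokine genes compared, 2 were at least 2-fold higher, *Cxcl1* and the platelet and macrophage chemokine *Ppbp*, and the ratio of *Ppbp* turned from 3.58 to -0.46 without the deep cells, with too few UMIs left to compare. None of the 5 CC chemokine genes outside the rule reached 2-fold in either direction: *Ccl6* had a log2 ratio of -0.25, *Ccl9* of 0.53 and *Ccl2* of -0.10. With 1.97% and 2.2% of all genes called, a count of 0 among 5 is near the background.

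Receptors and sensors followed. *Hcar2* was at 1935 CPM in the members, 781 CPM in the *Retnlg*/*Cxcr2* neutrophils and 50.4 CPM in the macrophages of day 1, with a log2 ratio between the neutrophils of 1.31 (1.18 to 1.44) and 1.28 without the deep cells. *Ccrl2*, a receptor that binds chemerin without signalling, was at 3291 and 1398 CPM, with 1.23 (1.14 to 1.33) and 1.11. *Nlrp3*, the sensor of the inflammasome that matures interleukin-1 beta, was at 1508 and 646 CPM, with 1.22 (1.08 to 1.37) and 1.09. Of the 12 chemoattractant receptor genes compared, 2 were past 2-fold (*Hcar2* and *Ccrl2*) and 0 were 2-fold lower, beside 1.97% and 2.2% of all genes. *C5ar1* and *Ccr1*, receptors of complement C5a and of CC chemokines, had log2 ratios of 0.27 and 0.01, and *Cxcr4*, the receptor for return to bone marrow, of 0.01.

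Genes of the NF-kB pathway leaned the same way with smaller ratios. All 23 feedback and target genes compared had a ratio above 0, with a median of 0.71, but only 3 reached 2-fold (*Ptgs2*, *Nfkbid* and *Tnfaip3*) and 0 were 2-fold lower. Over all genes, 1.97% were at least 2-fold higher and 2.2% lower, with a median of -0.10. Without the cells of over 4000 UMIs the median was 0.58, and 1 of 22 genes reached 2-fold. Over all genes the median was then -0.07, and 1.72% were at least 2-fold higher. *Ptgs2*, the inducible cyclooxygenase, was at 1779 and 769 CPM, with a log2 ratio of 1.21 (1.08 to 1.34) and 1.00 without these cells. *Nfkbid* and *Tnfaip3*, both regulators of NF-kB, had log2 ratios of 1.06 and 1.02, or 0.96 and 0.88. *Nfkbia* was at 12922 and 8231 CPM, with 0.65 and 0.53. *Bcl2a1a* and *Bcl2a1b*, survival genes whose near-identical copies make the split of reads uncertain, had 1.15 and 0.88.

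Of the 19 AP-1 and immediate early genes compared, 3 were at least 2-fold higher and 0 lower, beside 1.97% and 2.2% of all genes. Their median was 0.32 beside -0.10 over all genes. The 3 were *Atf3*, a stress-induced repressor, with a log2 ratio of 1.15 (0.74 to 1.62) and 1.56 without the deep cells, *Egr2* with 1.13 and 1.08, and *Maff* with 1.00 and 0.89. *Fos* went the other way, at 199 CPM in the members and 282 CPM in the *Retnlg*/*Cxcr2* neutrophils, a log2 ratio of -0.51 (-0.74 to -0.27). Genes with low levels but large ratios were *Ralgds*, an exchange factor for Ral, at 74.7 and 12.1 CPM (2.54, and 2.35 without the deep cells), *1110002J07Rik* at 182 and 31.8 CPM (2.48 and 2.15), and the kinase gene *Ikbke* at 61.6 and 13.6 CPM (2.10 and 1.995). Their UMIs in the *Retnlg*/*Cxcr2* neutrophils were 8, 21 and 9, so the intervals are wide: 1.63 to 3.85 for *Ralgds*, 1.89 to 3.21 for *1110002J07Rik* and 1.23 to 3.32 for *Ikbke*.

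The ratios of these genes moved little when the cells with macrophage markers were left out, to 1.42 for *Tnf*, 1.40 for *Il1rn*, 1.33 for *Il1a* and 1.28 for *Hcar2*. They depended more on which genes chose the members. With *Il23a* and *Gpr84* alone as the first sum, the log2 ratio was 1.02 for *Tnf*, 0.91 for *Ccrl2*, 0.68 for *Nlrp3*, 0.61 for *Il1rn*, 0.34 for *Hcar2* and -0.17 for *Atf3*. *Tnf* and *Ikbke* (1.17) stayed past 2-fold under that choice, which took 4.01% of the day 1 cells and put *Ccl3*- and *Ccl4*-rich cells into both groups.

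**Figure D3:**
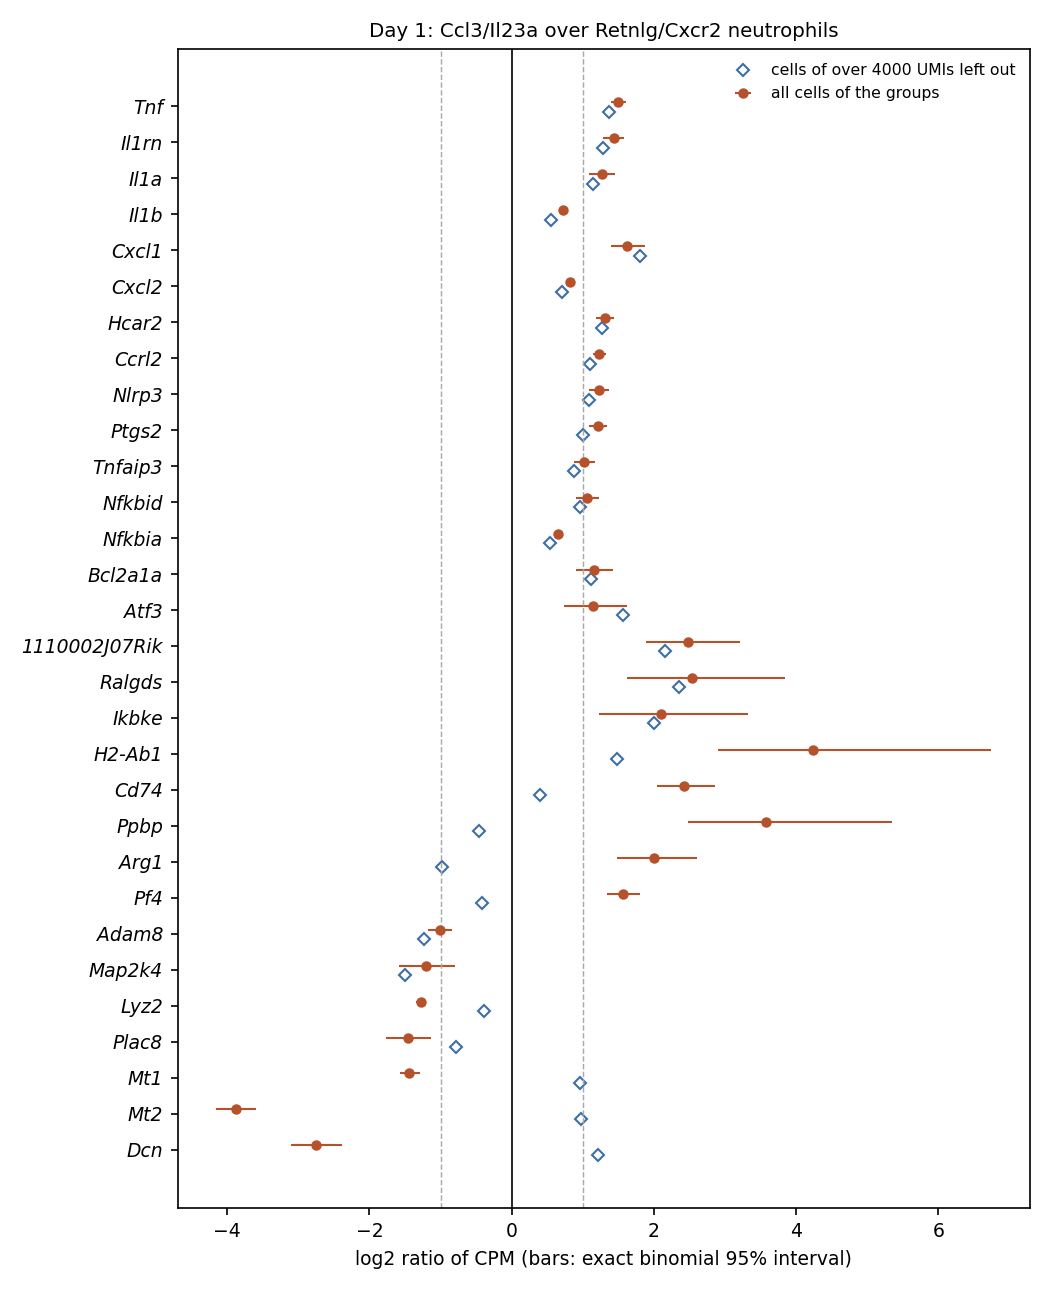
Log2 ratio of CPM of the *Ccl3*/*Il23a* over the *Retnlg*/*Cxcr2* neutrophils of day 1 (x axis) for 30 genes, as filled points with exact binomial 95% intervals, and as open diamonds without the cells of over 4000 UMIs; dashed lines mark 2-fold. For *Tnf*, *Il1rn* and *Hcar2* both values lie close together (1.50 and 1.37 for *Tnf*), while those of *Ppbp*, *Arg1* and *Mt2* move across 0, with too few UMIs left to compare.

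Neutrophil and granule genes were compared next. The neutrophil genes include *S100a8* and *S100a9*, which chose the neutrophils of both groups, so their count and median are set in part by that limit. Of the 13 neutrophil genes compared, 0 were 2-fold higher or lower, near the background of 1.97% and 2.2% over all genes, with a median log2 ratio of -0.07: *G0s2* was at 5405 and 5404 CPM, *Csf3r* at 1171 and 1225 CPM, *Il1r2* at 2696 and 2591 CPM and the gelatinase gene *Mmp9* at 1444 and 1412 CPM. Of the granule genes, 1 of 4 in the specific granule list (*Lyz2*) was at least 2-fold lower in the members. In the list of gelatinase granules and secretory vesicles, 1 of 7 was (*Mmp8*). In both lists 0 were 2-fold higher, with medians of -0.67 and -0.35. Neither of the 2 lower genes stayed past 2-fold without the deep cells. Granule content was not measured, and the place of *Mmp8* and *Hp* in the second list is only a grouping of genes. *Lcn2*, the siderophore-binding protein of specific granules, was at 1699 and 2807 CPM, a log2 ratio of -0.72 (-0.80 to -0.65) and -0.55 without the deep cells, and the haptoglobin gene *Hp* was at 1104 and 1409 CPM. The neutrophil collagenase gene *Mmp8* was at 44.2 and 153 CPM, with -1.79 and -0.97. *Mpo*, *Elane* and *Ctsg*, the azurophil granule genes of bone marrow precursors, had no UMI in the members of day 1, which allows up to 0.677 CPM. The other azurophil granule genes of the list, *Prtn3* and *Ms4a3*, had 40 and 2 UMIs there (9.03 and 0.452 CPM). Of the 11 interferon response genes compared, 0 reached 2-fold, and the median was -0.18.

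Of the genes named for a lower level in the members, *Adam8* and *Map2k4* stayed past 2-fold without the deep cells. *Adam8*, a metalloprotease of leukocytes, was at 270 and 543 CPM, with a log2 ratio of -1.01 (-1.18 to -0.83) and -1.24 without these cells. *Map2k4*, a kinase upstream of JNK, was at 49.4 and 114 CPM, with -1.21 and -1.50. Several genes with large ratios did not keep them. The MHC class II genes *H2-Ab1*, *H2-Aa* and *Cd74* had log2 ratios of 4.24, 3.02 and 2.42 with all cells and of 1.48, -0.11 and 0.40 without the cells of over 4000 UMIs, and *Arg1* and *Pf4* went from 1.998 to -0.98 and from 1.57 to -0.42. At the other end, the metallothionein genes *Mt2* and *Mt1* went from -3.87 to 0.97 and from -1.44 to 0.96, the fibroblast gene *Dcn* from -2.75 to 1.22, and the lysozyme gene *Lyz2* from -1.28 to -0.39. These genes were at 351, 397 and 1730 CPM (MHC class II genes), at 1526 and 5683 CPM (*Arg1* and *Pf4*) and at 10906 CPM (*Lyz2*) in the macrophages of day 1. Without the deep cells, *H2-Ab1*, *H2-Aa*, *Arg1*, *Mt2* and *Dcn* had too few UMIs left to compare. The part of macrophage or stromal RNA in these ratios was not tested.

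The members differed among themselves in how much *Ccl3* and *Ccl4* they held, and were split into 4 bins of equal size by the share of both genes in their UMIs, leaving out the cells of over 4000 UMIs. On day 1 the shares ran up to 0.672% in the lowest bin of 339 cells and from 2.75% to 13.7% in the highest of 338 cells, with median depths of 2034 and 2288.5 UMIs. The split itself fixed the order of *Ccl3* (3048 to 22532 CPM) and *Ccl4* (907 to 26924 CPM). *Tnf* was at 3257, 3330, 3933 and 5440 CPM from the lowest to the highest bin. *Hcar2* was at 1357, 1649, 2220 and 3548 CPM and *Il1rn* at 1240, 1484, 1872 and 2485 CPM. These 3 genes were thus highest where *Ccl3* and *Ccl4* were, in the order of the bins.

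Genes with lower levels followed too. *Atf3* was at 75.1, 94.3, 144 and 358 CPM, and *Gdf15*, a cytokine induced by cell stress, at 1.42 (1 UMI), 13.7, 30.1 and 95.1 CPM. *Gdf15* and *F10*, the gene of coagulation factor X (126, 194, 261 and 321 CPM), were chosen after their values were seen. Over all members of day 1, the 185 UMIs of *Gdf15* lay in 23 cells, with up to 67 in 1 cell. Its order over the bins thus rests on few cells. The macrophages of day 1 were at 68.9 CPM of *Gdf15*, 313 CPM of *F10* and 210 CPM of *Atf3*. The members were at 41.8, 259 and 163 CPM. From the lowest to the highest bin, *Ccrl2* rose from 2921 to 4891 CPM and *Cxcl2* from 52169 to 72254 CPM. *Nlrp3* rose from 1410 to 1802 CPM and *Nfkbid* from 1038 to 1448 CPM. Not all inflammatory genes followed. *Il1b* was at 19414 CPM in the lowest and 16954 CPM in the highest bin, *Il1a* at 1084 and 932 CPM, *Ptgs2* at 1819 and 1840 CPM and *G0s2* at 6536 and 5042 CPM. *Il23a* was at 426, 398, 374 and 624 CPM and *Gpr84* at 365, 245, 274 and 243 CPM. Both are genes of the rule, and a cell with little *Ccl3* and *Ccl4* could become a member only through them, so the rule shapes their order over the bins.

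On day 3 each bin held 32 cells. *Tnf* was at 3183, 2977, 3649 and 4675 CPM, *Hcar2* at 1299, 1856, 1990 and 3622 CPM and *Atf3* at 220, 460, 350 and 767 CPM. The highest bin again had the highest level of each. *F10* and *Gdf15* did not follow on day 3, with 0, 12, 5 and 4 UMIs of *F10* and 0, 1, 0 and 1 of *Gdf15* from the lowest to the highest bin. *G0s2* ran the other way, from 1792 to 642 CPM, and *Il1b* from 20339 to 16808 CPM. All cells of a day share 1 library, so the bins are not replicates.

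**Figure D4:**
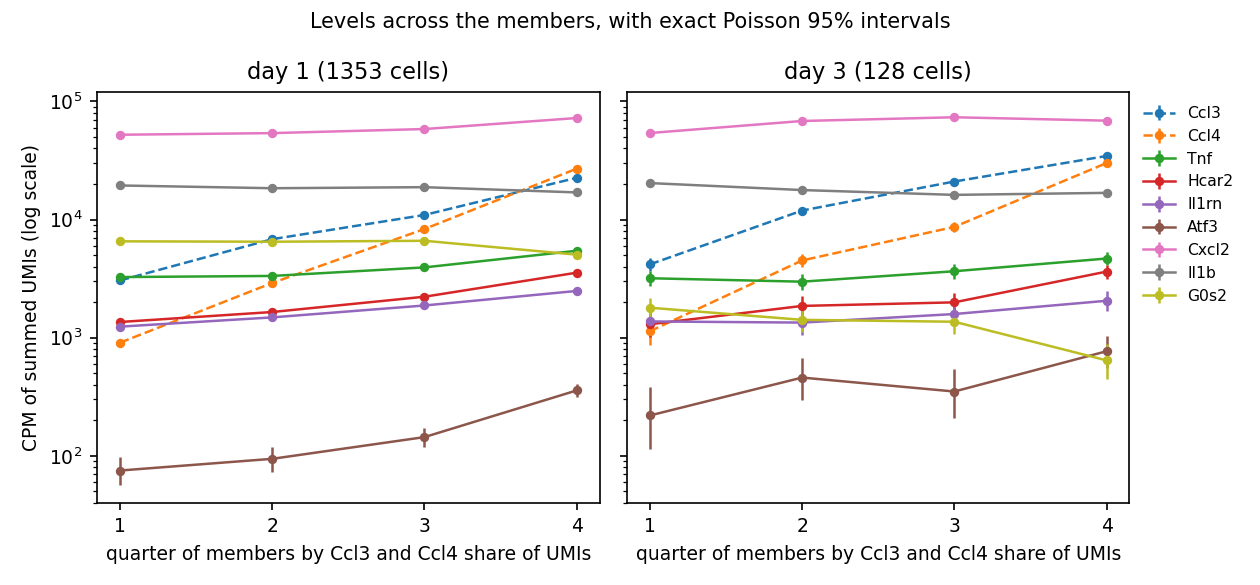
Levels (y axis, CPM of summed UMIs, log scale, with exact Poisson 95% intervals) in the 4 bins of the members by the share of *Ccl3* and *Ccl4* in their UMIs (x axis, lowest to highest), for day 1 (1353 cells) and day 3 (128 cells) and without the cells of over 4000 UMIs. *Ccl3* and *Ccl4* (dashed) set the order; *Hcar2* rises from 1357 to 3548 CPM on day 1, while *Il1b* does not rise.

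Members with an *Il23a* UMI were compared with members without one on day 1, after thinning each cell of up to 4000 UMIs to 1000 UMIs, which gave 297 and 1056 cells. *Il1a* was at 1471 CPM in the first and 791 CPM in the second, a log2 ratio of 0.90 (0.73 to 1.06). *1110002J07Rik* was at 306 and 170 CPM (0.86, 0.47 to 1.23), *Tnfaip3* at 1852 and 1225 CPM (0.60, 0.45 to 0.74) and *Tnf* at 5135 and 3582 CPM (0.52, 0.43 to 0.61). *Ccl4* was at 9865 and 9764 CPM, a log2 ratio of 0.02, and the log2 ratio of *Ccl3* was 0.29. These 2 values are tied to the split, since the rule sums *Il23a* with both genes. The cells with *Il23a* thus had more *Il1a* than those without. *Atf3* and *Gdf15*, highest in the bin with most *Ccl3* and *Ccl4*, had log2 ratios of -0.40 and -1.93 here, and the interval of *Atf3* (-0.93 to 0.06) included 0. The ratio of *Gdf15* rests on 3 and 47 UMIs. Of the other genes examined, *Rsad2* had a log2 ratio of 1.55 (0.88 to 2.21, 125 and 42.6 CPM) from 37 and 45 UMIs, and the rest were within 2-fold. The interferon response genes *Isg15* and *Irf7* had log2 ratios of -0.88 (-1.42 to -0.41) and 0.30 (-1.03 to 1.38).

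The comparison of the members between days asks which transcripts changed between 1 and 3 days after injury in neutrophils chosen by the same rule. The day 3 members had about the same *Tnf*, *Cxcl2*, *Il1b* and *Il1rn*, and less *G0s2*, *Cxcl3*, *Ccl6*, *Mmp9* and *Lcn2*. Of 3608 genes compared, 370 were at least 2-fold higher on day 3 (10.3%) and 231 at least 2-fold lower (6.4%), with a median log2 ratio of 0.20. Without the cells of over 4000 UMIs, 316 of 2700 genes were higher and 167 lower, of which 177 and 139 were also called with all cells. With the same lowest UMI count on both days, 360 genes were higher and 227 lower. Day, library chemistry and mitochondrial share (median 0.253% and 1.20%) cannot be told apart in these ratios. In the macrophages, each gene named in this paragraph was lower on day 3 than on day 1. *G0s2* went from 61.3 to 1.97 CPM there, *Cxcl3* from 2977 to 22.6 CPM and *Ccl6* from 6003 to 658 CPM. *Mmp9* went from 29.5 to 5.66 CPM, *Lcn2* from 138 to 33.3 CPM and *Tnf* from 392 to 90.3 CPM. *Cxcl2* went from 22606 to 2634 CPM, *Il1b* from 7821 to 342 CPM and *Il1rn* from 354 to 124 CPM.

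*Tnf* was at 3652 CPM on day 1 and at 3347 CPM on day 3, a log2 ratio of -0.13 (-0.23 to -0.02). *Cxcl2* was at 55113 and 61317 CPM (0.15), *Il1b* at 17024 and 16414 CPM (-0.05), *Il1rn* at 1660 and 1484 CPM (-0.16), *Hcar2* at 1935 and 2043 CPM (0.08) and *Ccrl2* at 3291 and 3002 CPM (-0.13). These genes thus differed little between the days. Other genes that were higher in the members on day 1 differed more. *Il1a* was at 937 and 479 CPM, a log2 ratio of -0.96 (-1.25 to -0.70), *Nfkbid* and *Tnfaip3* had -0.84 and -0.74, and *Atf3*, described below, had 1.62. *Clec4e*, the receptor Mincle that senses dead cells, was at 4753 and 7164 CPM (0.59).

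Some neutrophil and granule genes were lower on day 3. The neutrophil genes again include *S100a8* and *S100a9*, which chose the neutrophils of both days. *G0s2* was at 5405 CPM on day 1 and at 1198 CPM on day 3, a log2 ratio of -2.17 (-2.35 to -2.005) and -2.24 without the 2 cells of over 4000 UMIs, and its UMIs were in 74.5% and 36.2% of the members. *Mmp9* was at 1444 and 530 CPM, with -1.44 and -1.51, and *Lcn2* at 1699 and 790 CPM, with -1.10 and -1.56. *Chil3*, a chitinase-like gene of granules and macrophages, was at 1541 and 572 CPM, with -1.43 and -2.64. Of the 13 neutrophil genes compared, 2 were at least 2-fold lower (*G0s2* and *Mmp9*) and 0 higher, beside 6.4% and 10.3% of all genes. Of the granule genes, 2 of 4 in the specific granule list and 2 of 7 in the list of gelatinase granules and secretory vesicles were lower. Of the 6 NADPH oxidase genes, *Ncf1* (-1.01) and *Ncf4* (-1.04) were lower as well.

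The chemokines of the members split between the days. *Cxcl3* was at 3222 and 765 CPM, a log2 ratio of -2.07 (-2.29 to -1.86) and -1.91 without the deep cells. *Cxcl2* had a log2 ratio of 0.15. Both promoters carry the motif in the windows shown above, and its part in these levels was not tested. *Cxcl1* was at 686 and 547 CPM (-0.32). *Ccl6*, a CC chemokine of myeloid cells, was at 1593 and 219 CPM, with -2.85 (-3.29 to -2.47) and -2.86. Of the 5 CC chemokine genes outside the rule, 4 were at least 2-fold lower on day 3, beside 6.4% of all genes. Only *Ccl6* kept this without the deep cells: *Ccl7* went from -3.30 to -0.18 and *Ccl9* from -2.49 to -0.90, and *Ccl24*, not seen on day 3, could no longer be compared. Among low genes, *Crispld2* (-3.26 and -3.32) and *Msl1* (-3.17 and -3.06) had 2 UMIs each on day 3.

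Of the AP-1 and immediate early genes, 4 of 19 were at least 2-fold higher on day 3 and 0 lower, beside 10.3% and 6.4% of all genes. Their median log2 ratio of 0.09 lay below the 0.20 of all genes. *Fosb* was at 140 and 584 CPM, a log2 ratio of 2.06 (1.78 to 2.32) and 2.03 without the deep cells, and it was found in 61 of the 130 members. *Dusp1*, a phosphatase that switches off MAP kinases, was at 1801 and 4255 CPM, with 1.24 and 1.20 and UMIs in 125 members. *Atf3* was at 163 and 500 CPM, with 1.62 and 1.40, and *Fos* at 199 and 399 CPM, with 1.01 and 1.21. The long non-coding RNA *B930036N10Rik* was at 37.0 and 336 CPM, with 3.19 (2.78 to 3.58) and 3.33, in 35 members. These rises were spread over many cells. *Siglecf* was at 61.6 and 134 CPM, with 1.15 (0.55 to 1.66) and 1.03, in 14.8% of the members of day 1 and in 26 of the 130 members of day 3 (95% CI of the share 13.5 to 27.9), or 6.46% and 14.6% after thinning to 1000 UMIs. The stromal cells of day 3 had it in 0.200%, or 0 of 1001 after thinning. In the macrophages *Fosb* also rose, from 126 to 396 CPM, and *Atf3* from 210 to 496 CPM. *Dusp1* was at 665 and 753 CPM there and *B930036N10Rik* at 51.8 and 50.5 CPM.

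The interferon response genes were higher on day 3, with many of their UMIs in few cells. Of the 12 compared, 8 were at least 2-fold higher on day 3 and 0 lower, beside 10.3% and 6.4% of all genes. Their median log2 ratio was 1.41 beside 0.20 over all genes. Without the cells of over 4000 UMIs, 2 of them on day 3, 3 of 10 reached 2-fold and the median was 0.89. Over all genes, 316 of 2700 were then at least 2-fold higher, with a median of 0.18. *Rsad2*, the antiviral enzyme viperin, was at 48.8 and 433 CPM, a log2 ratio of 3.15 that became 1.61, and 66 of its 103 UMIs lay in 1 cell. *Isg15*, a ubiquitin-like protein, was at 202 and 765 CPM, with 1.92 and 1.13 and 71 of 182 UMIs in 1 cell. *Irf7*, a transcription factor of the response, was at 40.4 and 319 CPM, with 2.99 and 2.41, in 19 members. *Ifitm1* and *Ifitm2*, which were seen in 75.4% and 94.6% of the members of day 3, had log2 ratios of 0.75 and 0.70, and 0.72 and 0.73 without the deep cells. The monocyte genes *Plac8* and *Ly6c2* also had larger ratios (2.83 and 1.95), with 94 of the 112 UMIs of *Plac8* and 21 of the 42 UMIs of *Ly6c2* in these 2 cells. Of the 69 UMIs of the heat shock gene *Hspa1a*, 58 were in them, and its copies *Hspa1a* and *Hspa1b* share near-identical sequence and are uncertain. Outside the members, *Rsad2* was seen in 3.99% of the macrophages of day 1 and in 28.0% of those of day 3. In the stromal cells these shares were 2.03% and 17.3%.

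**Figure D5:**
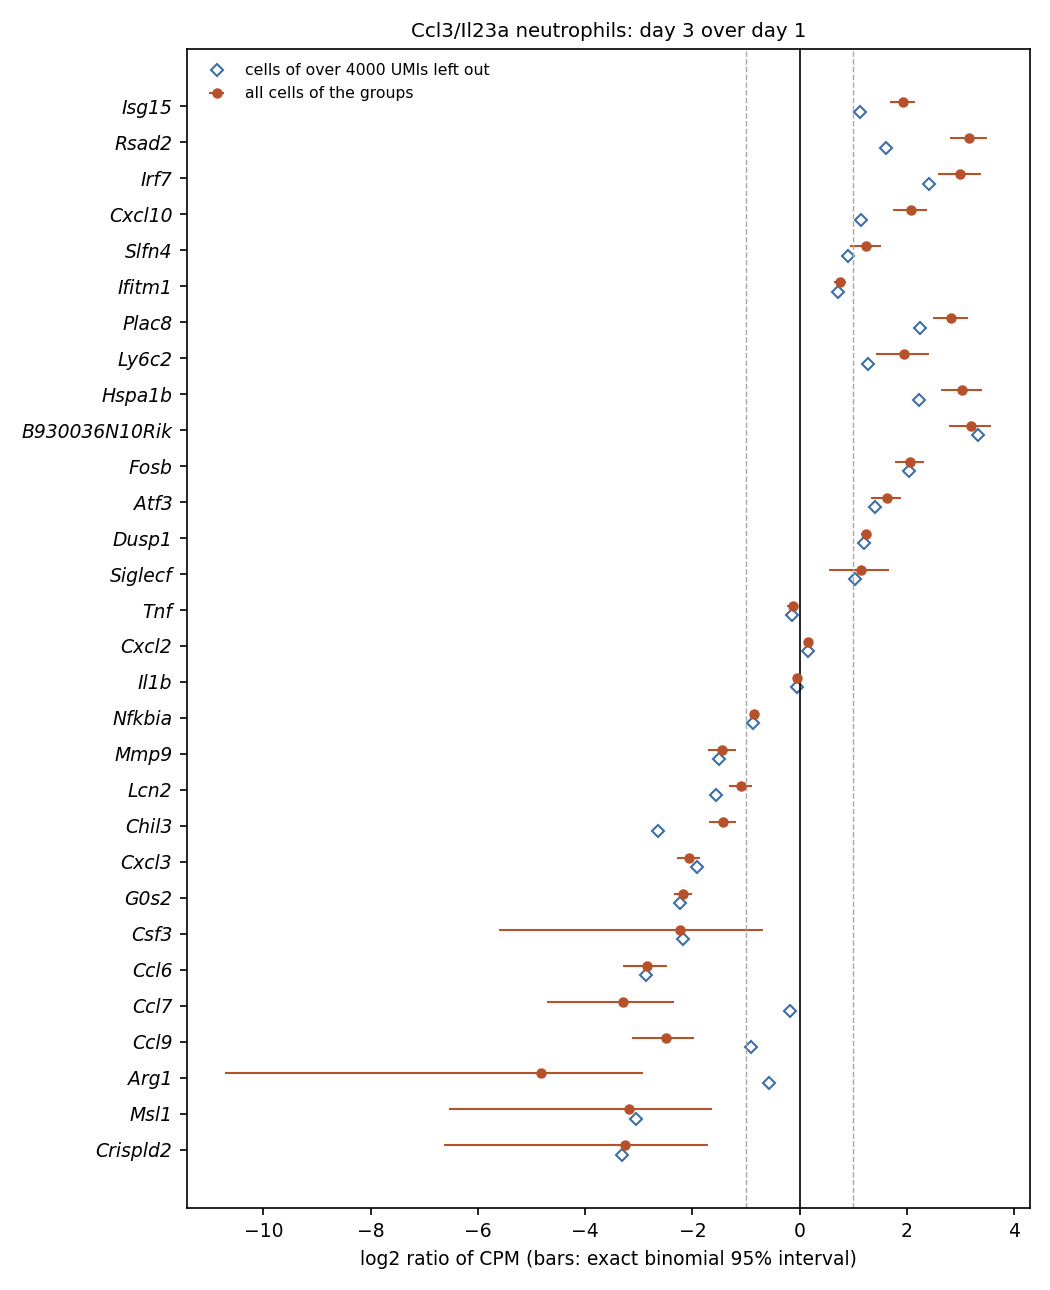
Log2 ratio of CPM of day 3 over day 1 in the *Ccl3*/*Il23a* neutrophils (x axis) for 30 genes, as filled points with exact binomial 95% intervals, and as open diamonds without the cells of over 4000 UMIs; dashed lines mark 2-fold. *Rsad2* moves from 3.15 to 1.61 and *Ccl7* from -3.30 to -0.18, while *Fosb* (2.06 and 2.03) and *G0s2* (-2.17 and -2.24) stay.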

How the data were processed

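The deposited values were raw UMI counts per gene and barcode, written by the authors for all possible barcodes with no call of cells, from 10x Genomics 3-prime libraries of 2 days. The submitters' processing notes name Cell Ranger 5.0.0 and build mm10, and the matrix header names Cell Ranger 4. Quadriceps of other conditions were not analysed here.

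The 7367 and 6640 barcodes with most UMIs were taken as cells of day 1 and day 3, and those with at least 1000 UMIs, at least 200 genes and at most 7.5% mitochondrial UMIs were kept, which left 6735 and 4627. Neutrophils had at least 2% of their UMIs in *S100a8* and *S100a9*. Counts were summed over the cells of a group and divided by the group's total (CPM). Log2 ratios carry a prior count of 0.5 UMIs in each group, genes needed 100 UMIs over both groups, and a ratio of at least 2-fold was counted as higher or lower. A gene without UMIs was given the limit of 3 UMIs. Each library pooled 5 mice and each day had 1 library, so no test was run. The members and the gene lists were chosen with earlier results of these data known.

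Genes were named as the 10 genes of the rule and the neutrophil limit, the most extreme ratios of each comparison (at least 200 UMIs, without mitochondrial and ribosomal protein genes), the highest levels and shares of UMIs, and up to 4 genes of each list. Other genes were named after their values were seen. Stromal cells and macrophages (at least 5 UMIs of macrophage markers) served for comparison. Ambient RNA was estimated from barcodes of at most 100 UMIs. Doublets were kept, since Scrublet marked 2 cells and 0 cells, and an alternative left out the 362 and 171 cells with the highest scores. Thinning drew 1000 UMIs per cell. Other alternatives changed the neutrophil limit, the genes and the excess of the rule, the filters on cells and genes, the scale and the ambient RNA. Near-identical gene copies and antisense genes may share reads. Scripts used Python 3.11.15, numpy 2.4.6, scipy 1.17.1, pandas 2.3.3, scanpy 1.11.5 and matplotlib 3.10.9, and were tested on simulated data.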

Additional observations from a re-analysis of the deposited data

Results flagged for a closer look

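Barcodes that the comparisons left out, because they had under 1000 UMIs or were not called as cells, also met the rule, in numbers above the limit that a count of 0 allows. They entered only the alternative that took all barcodes of at least 500 UMIs. On day 1, 126 barcodes of 500 to 996 UMIs met the other filters, 61 of them were neutrophils by *S100a8* and *S100a9*, and 52 of these met the rule (85.2%, exact binomial 95% CI 73.8 to 93.0). On day 3, 270 barcodes of 500 to 1301 UMIs met the other filters, 88 were neutrophils, and 84 met the rule (95.5%, 88.8 to 98.7). The 84 barcodes of day 3 stand beside 130 members, whereas the 52 of day 1 stand beside 1532. *Ccl3* was at 8235 and 16657 CPM and *Il23a* at 686 and 146 CPM in these barcodes, levels that the rule shapes. Of the genes outside the rule, *Tnf* was at 3799 and 3307 CPM, beside 3652 and 3347 CPM in the members, and *Isg15* at 172 and 437 CPM.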

How the results depend on the processing

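Each day has 1 library, so counting error is the only error measured, and levels near 3 UMIs cannot be resolved. No paired analysis was possible because each day has 1 library. With a neutrophil limit of 1%, the members were 25.85% and 3.67% of cells and 116 genes were higher than in *Retnlg*/*Cxcr2* neutrophils. With 5%, they were 15.03% and 1.38% of cells, 82.1% of day 1 neutrophils, and 41 genes were higher and 32 lower. An excess of 3 UMIs gave 21.6% of cells and 80.6% of neutrophils on day 1. Without *Il23a* and *Gpr84* in the rule, 55 genes were lower. Without *Ccl3* and *Ccl4*, the members were 4.01% and 0.475% of cells and 14.9% and 14.1% of neutrophils, with 19 genes higher and 172 lower on day 1, and 70 higher and 110 lower on day 3. All barcodes of at least 500 UMIs gave 4.37% of cells on day 3. Without likely doublets 139 genes were lower in the members than in the other neutrophils. Without cells with macrophage markers, the members were 20.5% of day 1 cells and 92.4% of day 3 neutrophils. Thinning left 44 genes higher and 19 lower between the neutrophils and 155 and 132 between days. Subtracting ambient RNA gave 348 higher genes on day 1, with an ambient share in the *Retnlg*/*Cxcr2* neutrophils of 22.1% that was 2.21% without the cells of over 4000 UMIs. A minimum of 20 UMIs gave 372 and 554 genes, and 1579 and 619 between days, and one of 500 gave 32 and 13, and 50 and 72. Leaving out neutrophils of over 4000 UMIs, chosen after seeing the data, gave 20.1% of day 1 cells, 89.5% of day 3 neutrophils, and 48 and 36 genes. Asking the lowest UMI count of day 3 of both days, also added then, changed none of these counts by over 1.5 times.

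Of the named genes' log2 ratios between the neutrophils, 1145 stayed, 535 moved and 22 turned direction over all alternatives, and 1302, 319 and 9 did so between days. Turned ratios between the neutrophils were, with a limit of 1%, *C1qa* 0.062. With 5% *Mt1* had 0.59. Without *Ccl3* and *Ccl4* in the rule *Ppbp* had -4.66, *Arg1* -3.69, *Pf4* -3.22, *Apoe* -1.14, *Hmox1* -1.07, *Mrc1* -1.06, *Atf3* -0.17, *Dcn* 1.34 and *Prg4* 3.00. Without doublets *Hspa1a* had 1.04 and *Apoe* -0.62. Without cells with macrophage markers *Pf4* had -0.36 and *Apoe* -0.22. *Mt1* had 0.16 as a mean over cells and 0.38 after thinning, and *Hspa1a* had 3.29 after ambient subtraction. Without the cells of over 4000 UMIs *Pf4* had -0.42, *Apoe* -0.47, *Mt1* 0.96 and *Npm1* 0.22. Between days, *F13a1* had 0.15 with a limit of 1%, *Mt1* 0.12 with 5%, *H2-Ab1* 0.71 and *H2-Aa* 0.16 as means over cells, *Mt2* 4.23 after ambient subtraction, and *Cd74* 0.091 without cells of over 4000 UMIs. Without cells with macrophage markers, *Cd74* had 0.12, *Pf4* 0.0083 and *Eef1g* 0.16. The causes were not tested.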
